A study of Caenorhabditis elegans with 34 samples.

Results

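The numbered collagens of the nematode Caenorhabditis elegans are the genes whose symbol is col followed by a number, and 156 of the 20222 genes with counts carried such a symbol. Of these, 41 lay on chromosome IV, 31 on V, 27 on X, 24 on II, 21 on I and 12 on III. Most of them encode small secreted collagens of the cuticle, the extracellular coat that the hypodermis (the skin of the worm) lays down around the animal. Chains are hydroxylated and folded in the endoplasmic reticulum, trimmed by proteases, assembled outside the cell and crosslinked. A new cuticle is built at every larval molt, the last of which gives the adult cuticle, and different collagen genes are switched on for different cuticles. A few members depart from this pattern, such as col-99, which encodes a transmembrane collagen that acts in axon guidance.

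RNA was taken from whole, unsorted animals on each of days 1 to 12, in 34 samples. Each day had 3 samples, except days 8 and 12, which had 2. Every group carried the allele spe-9(hc88), a temperature-sensitive lesion of a sperm gene, and was kept at 25°C, where it leaves the animals without progeny. Days were counted from the plating of synchronized L1 larvae on E. coli OP50, and each sample came from 1 plate, with the whole course run 3 times. No group without the allele or at another temperature was analysed here, so the course is that of this strain at this temperature. In whole animals, fewer cells of a type and less RNA per cell cannot be told apart. Among 7 hypodermis and seam markers, the defining gene lin-26 was between 94.3 and 99.1 CPM on day 2, against 123 to 161 CPM on day 1. Others were much lower on day 2, such as nhr-25, with a mean of 1.286 CPM on day 2, against 73.1 CPM on day 1, and ajm-1, with 41.6 CPM on day 2, against 204.9 CPM on day 1. The median log2 fold change of the 7 markers was -2.06.

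Levels are given as CPM, the counts of a gene relative to the library total, after scaling by the trimmed mean of M-values (TMM). Library totals lay between 19202058 and 27587987 counts on genes. On day 1, 46 of the 48 collagens that had their highest level on that day and exceeded 100 CPM were lowest in replicate 3, and 36 were highest in replicate 2. The highest of the 3 libraries was 4.77 times the lowest in the median of these genes (range 1.13 to 64.7). The summed level of 20 molting factors ran the other way, at 10811 CPM in replicate 3, 4847 CPM in replicate 1 and 2854 CPM in replicate 2. Another set of 21 collagens had their highest level on day 2, above 100 CPM. All 21 were highest in replicate 3 of day 2, replicate 2 of day 5, replicate 2 of day 6, replicate 2 of day 8 and replicate 1 of day 11. On other days they were divided, as on day 9, when 10 were highest in replicate 1 and 11 in replicate 2, and on day 4, with 8 in replicate 1 and 13 in replicate 2. The source of these differences was not tested. Fits of days 2 to 12 were repeated without replicate 2 of day 5, replicate 2 of day 8 and replicate 1 of day 11, while replicate 3 of day 2 and replicate 2 of day 6 were left out only with all samples of their number.

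To separate early from late genes, each member was placed by the day of its highest daily mean. A level of at least 1 CPM on some day was required. By this description, which carries no test, 79 members were highest on day 1, 34 were young adult genes with their highest mean on days 2 to 4, 7 were highest on days 5 to 8 (mid), 2 on days 9 to 12 (late) and 34 stayed low. The member nearest above the minimum was col-35, with 1.013 CPM on day 10, and the nearest below it was col-141, with a mean of 0.955 CPM on day 2. Among the young adult genes, 29 were highest on day 2, 4 on day 3 and 1 on day 4. Day 1 genes reached a median of 236 CPM on their highest day, young adult genes 1013 CPM, and the mid genes only 1.56 CPM. No member that was highest after day 4 had a daily mean above 11.3 CPM, and none of the 2 late genes exceeded a mean of 1.371 CPM. Within the samples of a single replicate number, 67 of the 79 day 1 genes and 28 of the 34 young adult genes fell in the same class under all 3 numbers, as did 27 of the 34 low genes, 2 of the 7 mid genes and 0 of the 2 late genes.

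The summed level lay mostly in the day 1 genes on day 1 and in the young adult genes on day 2. The classes were set by the highest daily mean in these same samples, so this order largely follows from the choice. The day 1 genes summed to 47013 ± 23059 CPM on day 1, 1105 ± 503 CPM on day 2 and 191 ± 32.5 CPM on day 3 (SD, n = 3 each). The young adult genes summed to 401 ± 255 CPM on day 1, 41016 ± 14196 CPM on day 2, 10531 ± 3035 CPM on day 3 and 2923 ± 582 CPM on day 4 (SD, n = 3 each). All 156 members together took 3.94% ± 1.93 of the counts on day 1, 3.21% ± 1.03 on day 2, 0.861% ± 0.178 on day 3 and 0.290% ± 0.0591 on day 4 (SD, n = 3 each). On day 12 the share was 0.0594% ± 0.0416 (SD, n = 2).

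**Figure D1:**
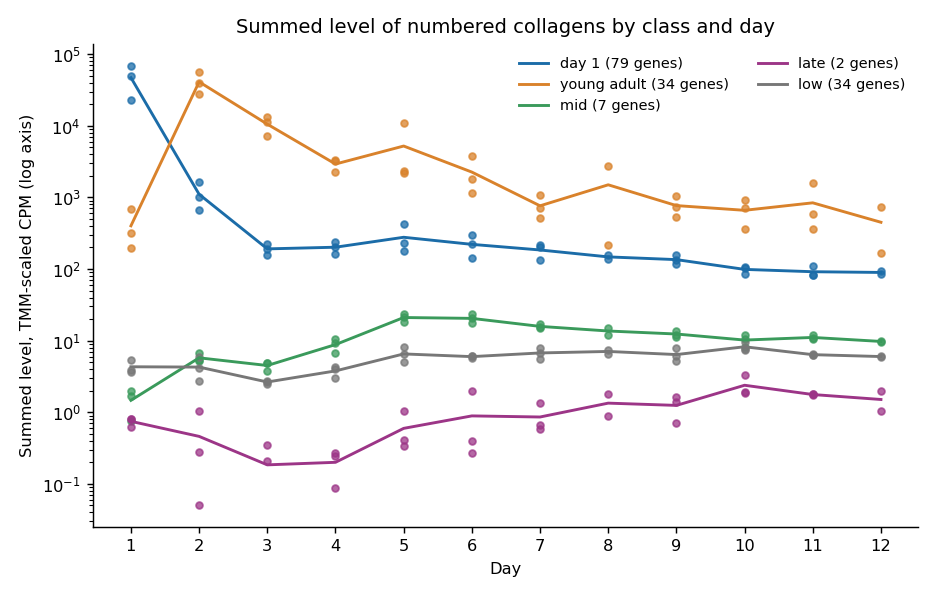
Summed level of the numbered collagens of each class (TMM-scaled CPM, log axis) against day, with 1 point per sample and a line through the daily means. The day 1 genes drop from 47013 CPM on day 1 to 191 CPM on day 3, the young adult genes reach 41016 CPM on day 2, and the mid, late and low genes stay at or under 23.5 CPM in sum. Classes were set by the highest daily mean in the same samples.

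Day 2 was compared with day 1 to show which collagens were switched at the end of larval growth. Of the 156 members, 124 had enough counts to be tested (at least 5 counts in at least 3 of the 6 samples), and 32 did not. Of the 124, 34 were higher and 69 were lower on day 2 (edgeR's quasi-likelihood test, adjusted p under 0.01). Over all 14911 genes tested, 35.1% were higher and 35.7% lower, so the share of lower members (55.6%) stood above that of all genes and the share of higher members (27.4%) below it. Of the members tested, 18 passed the filter on their day 1 counts alone, of which 17 were called lower, and 9 on their day 2 counts alone, all called higher. Such members could enter the test only through the day on which they were high, so their calls carry little weight. The other 97 members had at least 5 counts in at least 1 library of each day. Of these, 25 were higher, 52 were lower and 20 were not called. The samples of the 2 days did not overlap for the 25 and for 51 of the 52, with no share over all genes taken. Some, such as col-19, col-143, col-178 and col-73, had 5 counts in only 1 library of their lower day. Their calls thus also rest on the day on which they were high.

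The genes that fell were led by col-17, a larval collagen gene and the most abundant member per kilobase of transcript. It had 0, 0.204 and 0 CPM on day 2, against 4880, 4051 and 3979 CPM on day 1. The day 2 libraries held 4 counts of col-17, all in replicate 2, against 234989 counts on day 1. It passed the filter through day 1 alone, so the counts are given without a test. The 3 day 1 libraries were close to each other for col-17, unlike for most genes of its class.

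A second group of abundant cuticle collagen genes fell less far and kept a measurable level. col-3 had 20.9, 16.3 and 39.2 CPM on day 2, against 3625, 6002 and 1264 CPM on day 1 (147-fold lower, log2 -7.13, SE 0.716, edgeR adjusted p = 6.36e-05). col-10, a cuticle collagen gene known from lifespan studies of the worm, had 25.8, 15.6 and 31.4 CPM on day 2, against 3089, 5112 and 1070 CPM on day 1 (132-fold lower, log2 -6.96, SE 0.671, edgeR adjusted p = 5.16e-05). col-144 was close to it, 117-fold lower on day 2. The groups of samples did not overlap for any of these genes. col-3 and col-117 are neighbours on opposite strands, 588 bases apart on chromosome IV, and their counts differed by 1.24% in the median library and by 8.30% at most over all 34 libraries. The division of reads between them is therefore uncertain, and they were kept as 2 members in every count.

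Other day 1 genes were almost absent a day later. col-73 had 0, 0.153 and 0.949 CPM on day 2, against 3777, 3381 and 2176 CPM on day 1, and col-90 had 0.389, 0.459 and 0.369 CPM on day 2, against 3319, 2598 and 2171 CPM on day 1. For col-73 this was an 8430-fold lower level and for col-90 a 6634-fold lower one. col-41 was 3535-fold lower, and col-65 had 4 counts on day 2, against 28951 counts on day 1. Of col-172, col-131, col-145 and col-54, 2 or 3 counts were left in the 3 day 2 libraries, which gives ratios of 17073 (95% counting interval 4726 to 140983), 16685 (4618 to 137776), 5677 (1942 to 27530) and 4608 (1577 to 22350). These intervals cover counting error only. col-75 had no count on day 2 and was at least 312-fold lower, taking 3 counts over the group as the floor.

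The pair col-12 and col-13, which encode nearly identical cuticle collagens, shows how far the libraries of day 1 differed. col-12 had 7.33, 5.56 and 17.4 CPM on day 2, against 343, 1120 and 38.7 CPM on day 1. It was 52.2-fold lower (log2 -5.60, SE 1.2, edgeR adjusted p = 0.00328), and col-13 was 44.3-fold lower. Both calls were lost without replicate 1 (adjusted p = 0.0385 for col-12 and 0.0351 for col-13) and without replicate 2 (0.0223 and 0.0180). In contrast, col-38 was even on both days, with 4.89, 4.34 and 4.43 CPM on day 2, against 164, 149 and 145 CPM on day 1.

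The genes that rose included the best known gene of the adult cuticle. col-19, the standard marker gene of the adult hypodermis and a target of the heterochronic factor LIN-29, had 1735, 1249 and 2288 CPM on day 2, against 0, 1.014 and 0 CPM on day 1. This was a 4791-fold higher level (log2 12.26, SE 1.05, edgeR adjusted p = 2.85e-05). All 20 of its day 1 counts lay in replicate 2, so this call too carries little weight. col-119, the young adult gene with the highest level per kilobase, had 3116, 2395 and 4253 CPM on day 2, against 0.169, 0.456 and 0.348 CPM on day 1 (9868-fold higher, log2 13.27, SE 0.444, edgeR adjusted p = 7.43e-07). The samples of the 2 days did not overlap for either gene. The model of col-119 overlaps pdzd-8 on the other strand.

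Per kilobase of transcript, the daily mean on day 2 was 3741 CPM for col-119, 3239 for col-140, 2656 for col-122, 2612 for col-20 and 2451 for col-181. These levels were of the same order as those of the leading day 1 genes on day 1, which were 3934 CPM per kilobase for col-17, 3735 for col-3, 3729 for col-117, 3199 for col-10 and 3175 for col-73. col-143 was 9069-fold higher on day 2 than on day 1, col-181 6221-fold and col-20 5054-fold. col-178 had 119378 counts on day 2, against 5 counts on day 1, all of them in replicate 2. col-8 and col-179, with 2 counts each in the 3 day 1 libraries, had ratios of 53263 (95% counting interval 14744 to 439814) and 16911 (4681 to 139645).

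col-95 and col-135 had no count on day 1 in any library. col-95 had 765, 620 and 917 CPM on day 2 and was at least 13961-fold higher, and col-135 had 28.2, 37.4 and 22.03 CPM on day 2 and was at least 534-fold higher. col-95 was also the only abundant gene of the class with its highest mean on day 3, where its samples had 1099, 1299 and 580 CPM, but these overlapped with those of day 2. Other young adult genes were already running on day 1, such as col-93, with 2176, 1339 and 3338 CPM on day 2, against 46.7, 132 and 57.3 CPM on day 1 (28.2-fold higher, log2 4.88, SE 0.541, edgeR adjusted p = 0.000106). For 7 of the 9 genes of the class that fell fastest after day 2, the highest day 1 library was replicate 3, the library in which the day 1 genes were lowest. For col-8 and col-20, which are among the 7, replicates 1 and 3 held equal counts (1 each and 10 each). The order of these libraries thus rests on the scaling for these 2 genes.

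**Figure D2:**
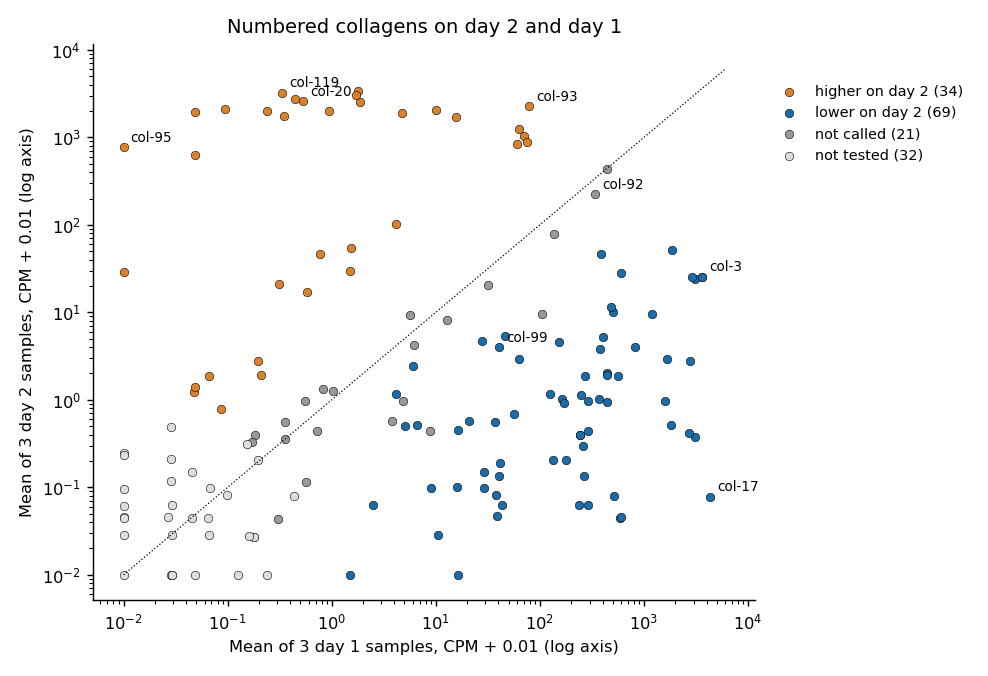
Mean level of each numbered collagen on day 2 (vertical, CPM + 0.01, log axis) against its mean on day 1 (horizontal, CPM + 0.01, log axis), n = 3 samples a day, coloured by the edgeR call. The 34 higher genes lie far above the dotted line of equal levels and the 69 lower genes far below it, while col-92 sits near it.

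Neighbouring genes could switch in opposite directions. On chromosome II (WBcel235), col-17 (4866436 to 4867576), col-20 (4869670 to 4870791) and col-73 (4872098 to 4873129) follow each other on the minus strand. The middle gene, col-20, had 2531, 1714 and 3543 CPM on day 2, against 0.565, 0.406 and 0.580 CPM on day 1, while both genes beside it were at or under 0.949 CPM on day 2. Further along chromosome II, col-80 (10707201 to 10708287) had 2029, 1216 and 2940 CPM on day 2, against 4.40, 2.43 and 23.4 CPM on day 1. Its neighbour col-39 (10704916 to 10706019) fell to 3.94, 3.37 and 6.91 CPM on day 2, against 8.36, 44.1 and 31.6 CPM on day 1, and col-79 (10703613 to 10704572) fell to 0.167, 0.0510 and 0.316 CPM, against 45.4, 15.7 and 63.9 CPM.

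On chromosome III, the row col-92, col-93 and col-94 held 1 gene that was called and 2 that were not. col-93 (10984552 to 10985609) was higher on day 2, as given above. col-92 (10982139 to 10983253) had 195, 124 and 349 CPM on day 2, against 224, 686 and 98.4 CPM on day 1 (log2 -0.57, SE 0.682, edgeR adjusted p = 0.461). col-94 (10986808 to 10987873) had 385, 241 and 679 CPM on day 2, against 323, 887 and 116 CPM on day 1 (log2 0.0026, SE 0.688, edgeR adjusted p = 0.998). The samples of both days overlapped for col-92 and col-94, which were the most abundant members with no call. The genes on chromosome III overlap the model of dhc-4 on the other strand, and those of the second row on chromosome II overlap dph-2. Strand handling of the counting is not given in the sources used here, so reads of such genes cannot be told apart from those of a partner on the other strand.

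These rows were exceptions in one respect. Of 31 pairs of members within 10000 bases of each other and above the minimum level, 23 (74.2%) were of the same class, against 49.6% of all 7381 pairs of such members. A run of this kind is col-167, col-168, col-169 and col-170 on chromosome X, all day 1 genes. These shares are a description, since neighbours are not independent of each other. The classes were spread over the chromosomes, with 22 day 1 genes on IV, 17 on V, 13 on X, 11 on II, 10 on I and 6 on III. Young adult genes numbered 8 on IV, 8 on V, 5 on X, 5 on III, 4 on I and 4 on II.

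**Figure D3:**
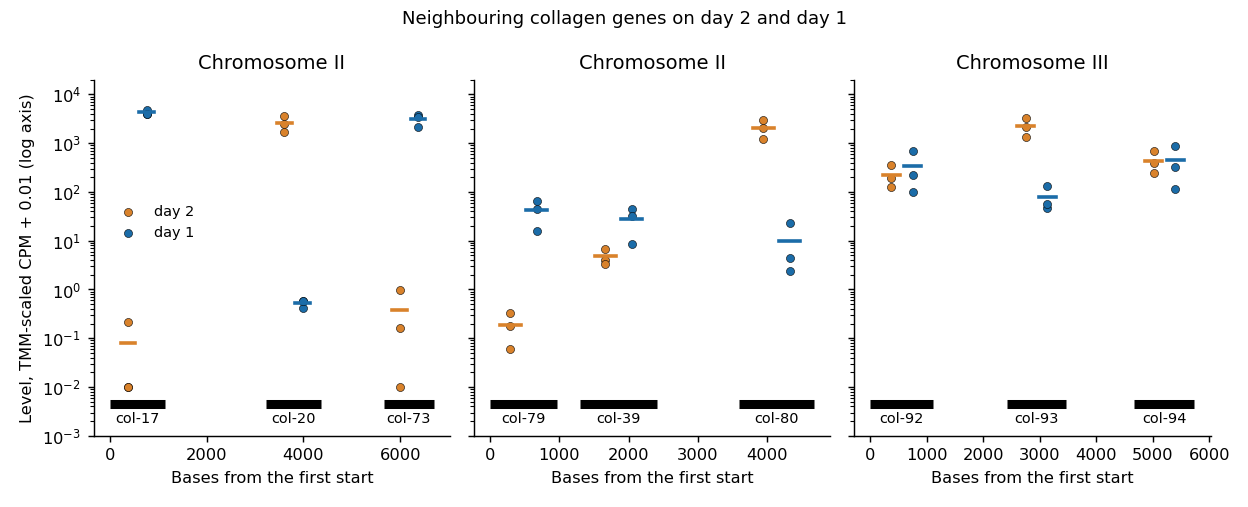
Level (TMM-scaled CPM + 0.01, log axis) of 3 rows of neighbouring collagen genes against the distance from the first start in bases, with 3 samples of day 2 (left of each gene's middle) and 3 of day 1 (right of it), short bars for the means and black bars for the genes. col-20, col-80 and col-93 are higher on day 2 than on day 1, col-17, col-73, col-39 and col-79 are lower, and col-92 and col-94 overlap.

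Genes that make, process or shape the cuticle were followed beside the collagens in the same fit. Of 19 tested cuticle shape collagens outside the numbers, the dpy, sqt, rol, bli and lon genes whose loss changes body form, 16 were lower and 1 was higher on day 2. rol-6 was an example, with 0 CPM in all 3 day 2 samples, against 2608, 1966 and 1465 CPM on day 1, and dpy-17 was the higher one. Of 20 molting factors, 18 were lower, and their sum was between 157 and 184 CPM on day 2, against 2854 to 10811 CPM on day 1. Of 14 collagen processing enzymes, 9 were lower and 1 was higher. The lower ones included dpy-18, a catalytic subunit of prolyl 4-hydroxylase (log2 -2.50, SE 0.267, edgeR adjusted p = 8.67e-05). The higher one was phy-3, another subunit of that enzyme family, with a mean of 1.923 CPM on day 2, against 0.0169 CPM on day 1. It passed the filter through day 2 alone, so its call carries little weight. Of 3 basement membrane collagen genes, which are not part of the cuticle, emb-9 and let-2 were not called (adjusted p = 0.402 and 0.794). The other, cle-1, was called higher, with a mean of 52.1 CPM on day 2, against 19.07 CPM on day 1.

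The tissues of the animal changed at the same time. All 9 germ line and oocyte markers were higher on day 2, and their sum was between 7717 and 8239 CPM on day 2, against 43.5 to 90.8 CPM on day 1. Hypodermis and seam markers were lower for 4 of 7, with sums of 156 to 171 CPM on day 2, against 440 to 656 CPM on day 1. lin-29, the heterochronic factor of the adult switch, had 3.44, 3.83 and 4.01 CPM on day 2, against 44.6, 47.3 and 114 CPM on day 1. The part of these shifts in the collagen levels was not tested.

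From day 2 to day 12, age was fitted as a third-degree polynomial to 31 samples, in which 85 members passed the filter (at least 5 counts in 75% of the samples). A change with age was called for 74 of the 85 members, against 80.3% of all 13865 genes tested (edgeR's quasi-likelihood test, adjusted p under 0.01). By the linear term, 61 members fell and 10 rose, shares of 71.8% and 11.8%, where 33.9% of all genes fell and 36.9% rose. Among the day 1 genes, 29 of 45 fell and 7 rose. Among the young adult genes, 31 of 33 fell and 0 rose, but these were placed by a highest mean on days 2 to 4 of the same samples, so a fall was built into their choice. Without the 3 libraries, 73 members changed, 61 fell and 9 rose. The median slope over the members was -0.28 log2 per day, against 0.0063 over all genes.

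The steepest slopes among members over 10 CPM were those of col-124 (-0.67 log2 per day, SE 0.0967, edgeR adjusted p = 2.43e-07), col-93 (-0.66), col-20 (-0.65), col-92 (-0.64), col-19 (-0.64) and col-80 (-0.63). col-19 had 1735, 1249 and 2288 CPM on day 2, 192, 208 and 162 CPM on day 3, 94.7, 120 and 67.04 CPM on day 4 and 14.3 and 1.09 CPM on day 12. col-95 declined over a longer time (-0.45 log2 per day, SE 0.0532, edgeR adjusted p = 5.46e-09), with 52.8 and 19.6 CPM left on day 12. col-158, named here after its values were seen, had a slope with a small error (-0.39 log2 per day, SE 0.0288, edgeR adjusted p = 2.68e-13) and was chosen for this after its values were seen. Its daily mean was between 17.01 and 24.9 CPM over days 2 to 5.

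Some abundant day 1 genes declined further in adults. col-3 had 20.9, 16.3 and 39.2 CPM on day 2 and 5.06 and 7.2 CPM on day 12 (-0.23 log2 per day, SE 0.0304, edgeR adjusted p = 4.73e-08). col-10 and col-144 had slopes of -0.34 and -0.37 log2 per day, and col-13 had -0.53. Over the same days, 3 of 7 hypodermis and seam markers rose and 1 fell. Of the other lists, 3 of 6 body wall muscle markers rose and 2 fell, all 6 intestine markers fell, 3 of 4 pharynx markers rose and 0 fell, 2 of 7 neuron markers rose and 2 fell, and 1 of 9 germ line markers rose and 4 fell.

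Part of this decline lay in the first days of adulthood. Days 4 to 5 were compared with days 2 to 3 in a fit with day as a factor, in which 23 of the 85 members were lower and 6 were higher, against 10.1% and 15.4% of all genes (edgeR, adjusted p under 0.01). col-101 was between 116 and 900 CPM on days 4 to 5 (median 203, n = 6), against 832 to 4534 CPM on days 2 to 3 (median 2131, n = 6), a log2 fold change of -2.89 (SE 0.685, edgeR adjusted p = 0.00181). col-119, col-143, col-160 and col-178 followed with log2 fold changes of -2.84, -2.83, -2.74 and -2.73. The samples of both windows overlapped for each of these 5 genes, and their highest value on days 4 to 5 came from replicate 2 of day 5.

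The calls of this window rest on few libraries. Without replicate 3, 4 members were called lower, and col-101, col-119, col-143, col-160 and col-178 were no longer past the threshold (adjusted p between 0.0381 and 0.0852). Without replicate 2 of day 5, replicate 2 of day 8 and replicate 1 of day 11, 32 members were called lower, and the log2 fold change of col-101 was -3.42 (SE 0.564, edgeR adjusted p = 7.03e-05). col-20, which was not called with all libraries (log2 -1.95, SE 0.976, adjusted p = 0.112), was then past the threshold (log2 -2.97, SE 0.863, adjusted p = 0.00978).

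Days 8 to 9 were then compared with days 4 to 5, where 31 members were lower and 4 were higher, against 24.1% and 24.2% of all genes. col-158 belonged to the lower ones, with 2.99 to 9.32 CPM on days 8 to 9 (median 3.27, n = 5), against 15.1 to 25.8 CPM on days 4 to 5 (median 20.3, n = 6), and these samples did not overlap (log2 -1.98, SE 0.279, edgeR adjusted p = 3.17e-06). Its level had not differed between days 4 to 5 and days 2 to 3 beyond the error (log2 0.029, SE 0.244, adjusted p = 0.934). The largest drops past 10 CPM were those of col-139 (log2 -3.72, SE 0.927, adjusted p = 0.00139), col-129 (-3.33), col-19 (-2.42), col-142 (-2.38) and col-92 (-2.31). For col-139 and col-129 the high values of days 4 to 5 came from replicate 2 of day 5, with 32.3 and 39.3 CPM, and from day 4 (8.24 to 20.6 CPM for col-139), while the other day 5 libraries had 1.61 and 1.69 CPM of col-139. Without the 3 libraries, 33 members were lower and 4 higher, and 25 of the 35 calls were kept. col-139 and col-129 were then no longer past the threshold (edgeR adjusted p = 0.0117 and 0.0132), and the log2 fold change of col-19 was -3.84. Without replicate 1 the lower calls of this window numbered 12, without replicate 2 they numbered 19 and without replicate 3 they numbered 25.

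The young adult genes did not leave day 2 at the same pace. Of the 21 genes above 100 CPM with their highest level on day 2, 9 had under 10% of it left on day 3 (col-8, col-20, col-42, col-80, col-93, col-98, col-103, col-124 and col-160) and 6 had at least 30% left (col-101, col-106, col-122, col-143, col-181 and col-184). These sets were made after the values were seen and carry no test. col-20 had 59.8, 67.2 and 44.7 CPM on day 3 and col-93 had 24.6, 18.2 and 9.599 CPM, while col-122 had 1327, 1656 and 766 CPM and col-181 had 1299, 1554 and 1017 CPM. Day 3 levels defined the sets, so the ratio of their sums on that day says nothing more. Days 4 to 7 entered the choice only through the rule that day 2 be the highest. On these days the fast set stood between 15.7 and 61.3 CPM per 100 CPM of the slow set in single libraries. This was under the 96.18 to 108.6 CPM of day 2 but above the 9.866 to 12.52 CPM of day 3. The sets were chosen for their distance on day 3, so a smaller distance on later days was favoured by that choice. No difference in their course after day 3 is therefore read from these ratios. col-42, col-98 and col-103 had similar counts to each other in the libraries (median difference 12.1% between col-42 and col-98), and were counted separately.

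In the libraries that stood apart, the same 21 genes were raised together. The ratios were taken with a small constant added to both levels, so those of genes with few or no counts depend on it. Replicate 2 of day 5 had 5.65 times the mean of the other 2 libraries of its day in the median gene (range 2.41 to 14.3). Replicate 2 of day 6 had 2.81 times, and replicate 1 of day 11 had 3.89 times. On day 8, replicate 2 had 29.3 times the level of replicate 1 (range 3.36 to 141.5), the widest of these gaps. col-119 showed this plainly, with 196 CPM in replicate 2 and 3.39 CPM in replicate 1 of day 8, and col-20 had 70.3 CPM in replicate 2 and no count in replicate 1. On day 12, 20 of the 21 genes were higher in replicate 1 than in the other library (median 8.91 times). col-40 was an extreme case, with 10.5 CPM in replicate 2 of day 5 and at most 0.930 CPM in every other library, and its place among the mid genes rests on that library alone.

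The summed day 1 genes were also highest in several of these libraries. They summed to 1653 CPM in replicate 3 of day 2, with 999.6 and 663.7 CPM in the other libraries of that day, to 419.7 CPM in replicate 2 of day 5, with 234.3 and 178.4 CPM in the others, and to 110.8 CPM in replicate 1 of day 11, with 82.8 and 81.6 CPM in the others. On day 8 they summed to 156.4 CPM in replicate 2 and 139.0 CPM in replicate 1, where the young adult genes summed to 2784 and 214 CPM. On day 6 the day 1 genes were highest in replicate 1 instead. The class includes col-92 and col-94, which kept high levels on day 2. A set without them was the 36 day 1 genes above 100 CPM with under 1% of it left on day 2. They summed to 198.5 CPM in replicate 3 of day 2 and 128.9 CPM in replicate 2 of day 5, again the highest of their days. On day 8 they summed to 47.4 CPM in replicate 2 and 70.7 CPM in replicate 1. On day 11 they summed to 30.4 CPM in replicate 1 and 33.7 CPM in replicate 2. Body wall muscle markers summed to 234.5 CPM in replicate 2 and 188 CPM in replicate 1 of day 8, and germ line markers to 4520 and 5273 CPM. The part of these markers in the collagen gaps was not tested.

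**Figure D4:**
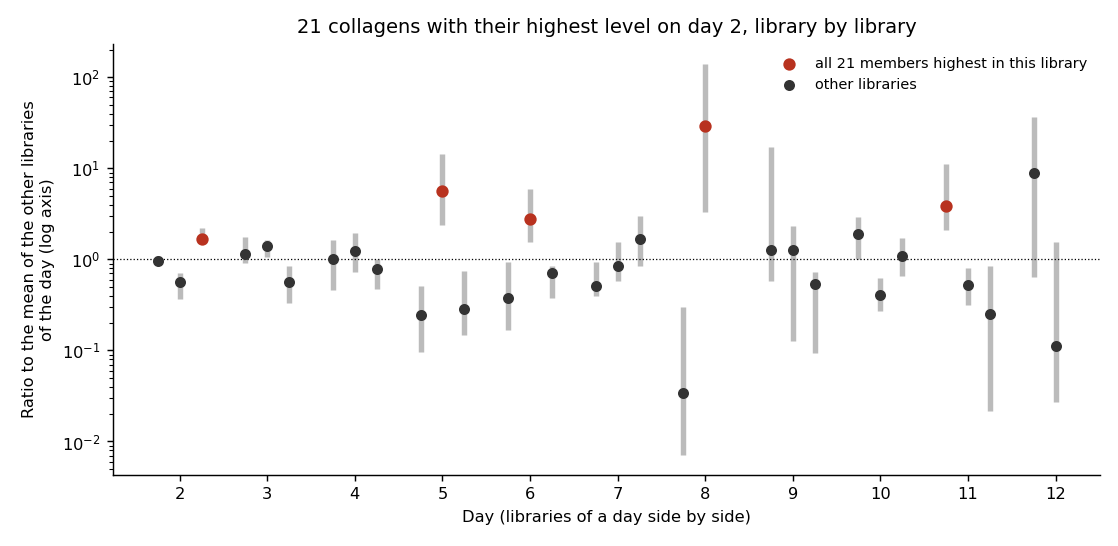
Ratio of each library to the mean of the other libraries of its day (log axis) for 21 collagens with their highest level on day 2, over days 2 to 12. A small constant was added to both levels. Points are medians over the 21 genes, grey bars run from the lowest to the highest gene, and red points mark libraries in which all 21 were highest, with medians of 1.67 on day 2, 5.65 on day 5, 2.81 on day 6, 29.3 on day 8 and 3.89 on day 11.

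A small group of members rose during adulthood, at low levels. The 10 rising members by the linear term were col-46, col-63, col-64, col-69, col-74, col-99, col-113, col-120, col-121 and col-130, of which only col-99 averaged over 10 CPM. col-99 had 16.7, 19.5 and 12.9 CPM on day 5, 24.7, 23.7 and 23.6 CPM on day 6 and 8.25 CPM in both samples of day 12, against 4.55, 2.55 and 4.80 CPM on day 2. Its course was bent, with a slope of 0.16 log2 per day (SE 0.0349, edgeR adjusted p = 0.000129) and a quadratic term past the threshold (adjusted p = 1.60e-06). On day 1 it had been higher than at any later time, with 33.6, 25.9 and 61.6 CPM. col-99 was higher on days 4 to 5 than on days 2 to 3 (log2 1.33, SE 0.256, edgeR adjusted p = 0.000251) and on days 8 to 9 than on days 4 to 5 (log2 1.10, SE 0.253, adjusted p = 0.000691). The call of days 8 to 9 was lost without replicate 1 (adjusted p = 0.0184) or replicate 2 (0.0185). Its model overlaps daf-1 on the other strand.

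col-121 was absent on day 1, had 0.910, 0.687 and 0.879 CPM on day 4, 7.49, 4.98 and 10.8 CPM on day 5 and 12.0, 11.9 and 10.1 CPM on day 6, and then ebbed to 3.98 and 5.30 CPM on day 12. It had the largest rise of any member at days 4 to 5 against days 2 to 3 (log2 5.67, SE 0.441, edgeR adjusted p = 5.61e-10), and the samples of these windows did not overlap. However, it had only 1, 0 and 0 counts on day 2 and 0, 6 and 0 counts on day 3. It passed the filter through days 4 to 12, on which it was higher, so this call and its rank carry little weight. It was higher again at days 8 to 9 against days 4 to 5 (log2 1.57, SE 0.253, adjusted p = 1.60e-05). The model of col-121 overlaps daf-15 on the other strand, so reads of the 2 genes cannot be told apart if strands were not kept.

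The other mid genes were lower still. Per kilobase, col-121 reached a daily mean of 9.485 CPM, col-40 3.432, col-116 2.789, col-86 1.6 and col-183 1.419. col-116 had 5.152, 4.09 and 6.465 CPM on day 5, against 3.054, 2.654 and 2.53 CPM on day 2. It was higher on days 4 to 5 than on days 2 to 3 (log2 0.91, SE 0.185, edgeR adjusted p = 0.000429) and lower again on days 8 to 9 than on days 4 to 5 (log2 -1.02, SE 0.197, adjusted p = 0.000123). col-183 had 3.397 CPM in replicate 1 of day 6, against 0.7259 and 0.4435 CPM in the other libraries of that day, so its mean rests mainly on 1 library.

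Several collagens known from the field stood at low levels here. col-120, known from lifespan studies of the worm, had 0.8328, 0.3063 and 0.369 CPM on day 2, against 7.283, 10.24 and 2.202 CPM on day 1 (log2 -3.68, SE 0.669, edgeR adjusted p = 0.00148), and then rose with age (0.18 log2 per day, SE 0.0343, adjusted p = 2.1e-05). col-49 had 0, 0.05104 and 0.2108 CPM on day 2, against 12.53, 6.388 and 7.998 CPM on day 1. col-7 had 0.8884, 0.7146 and 2.056 CPM on day 2, against 0.1129, 0 and 0 CPM on day 1, and col-62 had 0.7773, 1.123 and 3.69 CPM on day 2, against 0.1129, 0 and 0.05796 CPM. col-49 passed the filter through day 1 alone, and col-7 and col-62 through day 2 alone. col-141 had 0.8884, 0.8167 and 1.16 CPM on day 2, against 0.1129, 0.2028 and 1.333 CPM on day 1, with overlap and no call (edgeR adjusted p = 0.377).

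col-130 had its highest adult level at the end of the course. This day 1 gene, with 216, 457 and 49.96 CPM on day 1, was at 0.0524, 0.148 and 0 CPM on day 3 and at 2.29, 3.898 and 3.09 CPM on day 11, and had 6.26 and 7.24 CPM on day 12. Its slope was 0.44 log2 per day (SE 0.0568, edgeR adjusted p = 3.50e-08), and 0.46 log2 per day (SE 0.0624, adjusted p = 5.19e-07) without days 2 and 3. The slope of col-99 was gone without days 2 and 3 (-0.0016 log2 per day, SE 0.0348, adjusted p = 0.970), and that of col-121 was 0.083 (SE 0.0359, adjusted p = 0.0400). In that range of days 5 members rose, col-35, col-74, col-84, col-120 and col-130, and 54 fell. That fit had its own filter, and no share over all genes was taken for it. col-35 and col-74 had their highest mean on day 10 of the same samples, so a rise was built into their place as late genes.

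The 2 genes of the late class were at the limit of detection. col-35 had no count on days 3 and 4, and had 0.990, 1.30 and 0.7499 CPM on day 10 and 0.562 and 1.38 CPM on day 12. It was not tested over days 2 to 12. Over days 4 to 12 its slope was 0.47 log2 per day (SE 0.0874, edgeR adjusted p = 3.67e-05), but its class was set by these same days. col-74 had 0.945, 0.586 and 2.58 CPM on day 10, and its place in the class came from 1 library of that day. Taken by daily medians, no member was late.

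**Figure D5:**
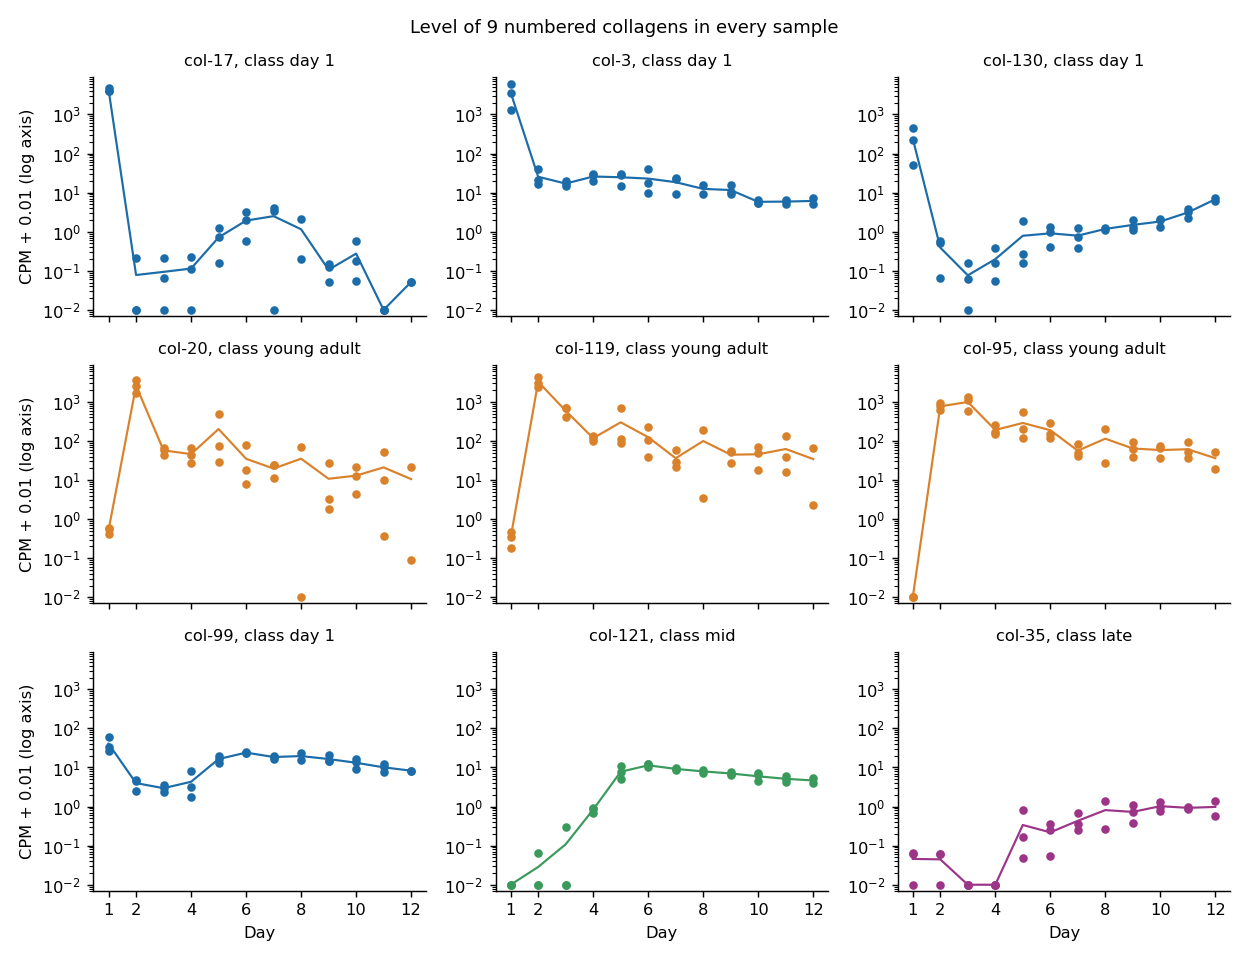
Level of 9 numbered collagens (CPM + 0.01, log axis) against day in all 34 samples, with lines through the daily means. col-17 drops to under 1 CPM on day 2, col-20 and col-119 appear on day 2 and spread widely between the libraries of day 8, col-99 and col-121 are highest among adult days on day 6, and col-130 climbs up to 7.24 CPM on day 12.

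The last comparison was that of days 11 to 12 with days 8 to 9. The median log2 fold change was -0.59 over the members, against -0.0024 over all genes, and -0.78 over the young adult genes. Of the 85 members, 0 were higher and 0 were lower past the threshold, against 0.462% and 0.613% of all genes (edgeR, adjusted p under 0.01). At an unadjusted p under 0.05, 22 members were lower and 1 was higher, where 16.5% and 13.5% of all genes were. With DESeq2's Wald test 5 members were lower and 1 was higher, where 464 and 468 of all 13865 genes were. The smallest adjusted p-values were those of col-158 (log2 -1.27, SE 0.301, adjusted p = 0.0138) and col-130 (log2 1.83, SE 0.482, adjusted p = 0.0210), both in the direction of their earlier course. Of all 85 members, 72 had a negative and 13 a positive log2 fold change in this window.

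The other genes of the cuticle parted from the numbered collagens in the linear term over days 2 to 12. Of 20 cuticle shape collagens, 11 were tested, of which 10 rose with age and 0 fell. Some had very few counts on days 2 and 3, such as dpy-3, with daily means of 0.0866 and 0.105 CPM. Such genes passed the filter through later days, on which they were higher, so a rise was built into their being tested. Of 20 molting factors 14 rose and 1 fell, where 10 of 85 numbered collagens rose and 61 fell. Over all genes, 36.9% rose and 33.9% fell. On days 11 to 12 against days 8 to 9 the groups were alike. The median log2 fold change there was -0.49 for the cuticle shape collagens, -0.52 for the molting factors and -0.59 for the numbered collagens. dpy-14 was an example, with 68.9, 71.5 and 85.0 CPM on day 5, against 0.278, 0.510 and 0.158 CPM on day 2, and dpy-17 had 73.3, 82.1 and 89.6 CPM on day 5, against 5.89, 3.42 and 6.48 CPM on day 2. These genes and col-121 and col-99 came up between days 4 and 5 in all libraries of these days. Other shape collagens stayed far below their day 1 level. An example was sqt-3, with daily means of 5152 CPM on day 1, 9.86 CPM on day 2 and 74.8 CPM on day 6. Of 14 collagen processing enzymes, 2 rose and 5 fell with age. All 3 basement membrane collagen genes fell (median -0.12 log2 per day).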

How the data were processed

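Messenger RNA of whole animals was enriched with oligo(dT) beads and sequenced. The table that the authors deposited holds unnormalized read counts per gene, as whole numbers. Per the submitters' processing notes, STAR 2.7.3a, featureCounts and the build WBcel235 were used, while strand handling is not given in the sources used here. A row that names no gene, a transgene, held at most 0.0012% of the counts and was left out. Groups are the days named in the labels. A column of day 12 bears the number 3, which no label of that day has, and it entered as a day 12 sample with no number.

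Day 2 was compared with day 1 in a fit of 6 samples (filter of 5 counts in 3 samples), and age was fitted over days 2 to 12 as a third-degree orthogonal polynomial (5 counts in 75% of 31 samples, linear, quadratic and cubic terms each adjusted). Windows of days were contrasts of a fit with day as a factor over the same 31 samples. All used edgeR 4.0.16 (TMM, glmQLFit and glmQLFTest) in R 4.3.3, with Benjamini-Hochberg adjustment over all genes tested and a threshold of 0.01. The scripts were tested on simulated data. Errors are those of the samples named, and p-values measure the spread between these samples. Intervals and floors (3 counts over a group) cover counting error only. Positions are from the Ensembl annotation of WBcel235. Of the members, 55 overlap another counted gene, 7 of them on the same strand.

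Members named with values were, for day 2 against day 1, the 10 largest changes each way past the threshold with no overlap and at least 10 CPM on the higher day. For age they were the 6 steepest each way over 10 CPM, for each window the 5 largest each way over 10 CPM, for each class the 5 highest per kilobase, and members known from the field. The members and lists were chosen with earlier results of these data known. Of 8 hypodermis markers, elt-5 was not found among the symbols. Alternatives were other scalings (DESeq2 1.42.0 size factors, library size alone), other filters, DESeq2's Wald test, a threshold of 0.05, removal of a trend on transcript length, a replicate block and leaving out each replicate number. Further ones, without 3 libraries that stood apart and without days 2 and 3, were chosen after seeing the data. The check of replicate numbers gave a correlation of deviations over 0.1 for 44 of 166 same-numbered combinations of samples, so the numbers were not taken to pair the samples. Summaries were made in Python 3.11.15 with NumPy 2.4.6 and pandas 2.3.3.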

Additional observations from a re-analysis of the deposited data

How the results depend on the processing

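Of 173 counts of members recomputed under an alternative, 139 stayed within 1.5 times the main count, and no called member changed its sign in the alternatives where signs were compared, which leave out the filter of 5 of the 6 samples, the fit of all 34 samples and the fit without days 2 and 3. In the last of these, the slope of col-99 was -0.0016 log2 per day, against 0.16 with all days. With at least 10 counts in every sample, fewer genes are tested, and the calls were 11 higher and 33 lower for day 2 against day 1, 41 changed, 2 rising and 37 falling with age, 3 higher on days 4 to 5 and 1 higher on days 8 to 9. Over all genes, 3611 of 10299 were then higher and 3772 lower on day 2. With age, 8680 of 10614 changed, 3809 rising and 3824 falling, and 1541 were higher on days 4 to 5 and 2602 on days 8 to 9. With 5 counts in 5 of the 6 samples, 20 members were higher on day 2. Without any filter, 23 members rose with age, 10 were higher on days 4 to 5 than on days 2 to 3 and 7 on days 8 to 9 than on days 4 to 5. Of all 20188 genes, 7113, 2248 and 3717 did so. With library size alone, 13 members were higher on days 4 to 5, where 4010 of all 13865 genes were. The median of all genes in that window moved to 0.295 on the log2 scale, against 0.0058 with TMM. It moved to 0.192 on days 8 to 9 and to -0.23 on day 2. At a threshold of 0.05, 12 members were higher on days 4 to 5, 7 on days 8 to 9, and 1 higher and 7 lower on days 11 to 12. Of all 13865 genes, 3067, 4220, 749 and 821 were. With the length trend removed, 1 member was higher and 1 lower on days 11 to 12, where 814 and 234 of all 13865 genes were. DESeq2 called 1 member higher and 5 lower there, and 468 and 464 of all genes. For age, DESeq2 called 58 members changed, 10 rising and 44 falling, against 74, 10 and 61 in the main fit. It kept 53 of the 71 linear calls and gave no adjusted p for 18. Over all 13865 genes it called 11395 changed, 5229 rising and 4706 falling. Without days 2 and 3, 5 members rose with age.

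With each replicate number left out in turn, lower calls were 4 to 28 on days 4 to 5 and 12 to 25 on days 8 to 9, and higher calls were 2 to 6 and 1 to 4. The same gave 25 to 33 higher and 49 to 75 lower members for day 2. The cause of these differences was not tested. The late class held 1 to 4 genes with a number left out, 0 by daily medians or with a minimum of 5 CPM, and 1 without the 3 libraries that stood apart, and the mid class held 2 with the 5 CPM minimum.

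In the fit with the replicate number as a block, which leaves out the day 12 sample without a number, the calls were 32 higher and 66 lower on day 2, 76 changed, 10 rising and 62 falling with age, 6 and 23 on days 4 to 5 and 4 and 30 on days 8 to 9. Over all genes, 4765 of 14911 were higher and 4780 lower on day 2. With age, 11155 of 13898 changed, 5074 rising and 4677 falling. The windows had 2182 and 1463 on days 4 to 5 and 3414 and 3311 on days 8 to 9. Same-numbered deviations of days 1 and 2 correlated between 0.00654 and 0.113, which does not establish a pairing, and whether a number marks one run of the course is not given in the sources used here. Values resting on few counts, as for many of the 34 low members, carry a large counting error.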
